A study of Mus musculus with 2 samples.

Results

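The antibody secretion genes Jchain, Mzb1, Xbp1, Prdm1, Sdc1, Derl3 and Coch were followed across plasma, B, plasmacytoid dendritic and CD8 T cells of the inflamed mouse stomach. They are 7 of the 31053 genes in the deposited matrices, and all 7 were present in both matrices. The list was drawn up with the levels of these genes in these cells known, so the order of their levels is given as a description and no test is made of it. Cells were live (propidium iodide-negative) CD45+ cells flushed from the gastric mucosa and profiled as single cells with 10x Genomics 5' v1.1 chemistry. All mice were TxA23, a T cell receptor transgenic line in which CD4 T cells recognise the gastric proton pump and autoimmune gastritis develops, and no mouse without the transgene was analysed here. The IL-27 group carried a pump under the skin loaded with 800 ng of recombinant IL-27 (covalently linked p28 and EBI3, 4 µg per mL) from 3 months of age for 4 weeks, and its library pooled 3 females. The PBS group carried a pump with PBS alone from the same age and for the same time, and its library pooled 1 male and 1 female.

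A B cell that becomes a plasma cell exports immunoglobulin at a rate that needs an enlarged endoplasmic reticulum, and the transcription factors encoded by Prdm1 (Blimp-1) and Xbp1 drive this change. The J chain, encoded by Jchain, links IgA dimers and IgM pentamers and lets them be carried across mucosal epithelium. Mzb1 encodes an endoplasmic reticulum protein that helps immunoglobulin assembly in B cells and is also made by plasmacytoid dendritic cells, Derl3 a derlin that takes part in the removal of misfolded proteins, and Sdc1 the surface proteoglycan syndecan-1 (CD138) by which plasma cells are commonly sorted. Xbp1 and Prdm1 also act outside the B lineage, Xbp1 in dendritic cells and Prdm1 in effector T cells. Coch encodes cochlin, a secreted protein best known from the inner ear.

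Of the 7 genes, 6 had a promoter in the RefSeq set searched (build GRCm38.p6, from 250 bases before to 50 bases after a transcript start), which held none for Mzb1. Of these 6, 1, that of Derl3, held the ER stress response element, the motif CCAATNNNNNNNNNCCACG. Both strands were searched, and 39 of 32851 promoters (0.119%) held the motif. Among 42 genes of a list of the endoplasmic reticulum secretory machinery, 33 had a promoter in the set and 8 of those (24.2%) held it. The share of the list is counted per gene, and that of the whole set per promoter. The sites are shown because Derl3 shares this motif with genes of that list whose levels are given further on; capitals mark the letters the motif fixes. Each is written 5' to 3' on the strand that carries the motif, and the distance is from the first base of the site in the direction of the gene to the start.
Derl3, chr10:75893242-75893260, minus strand, 156 bases before the start: CCAATggggaagtcCCACG
Calr, chr8:84847075-84847093, plus strand, 162 bases before the start: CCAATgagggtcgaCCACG
Canx, chr11:50325800-50325818, minus strand, 145 bases before the start: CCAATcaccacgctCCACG
Creld2, chr15:88819520-88819538, minus strand, 126 bases before the start: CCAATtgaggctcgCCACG
Dnajc3, chr14:118937827-118937845, plus strand, 105 bases before the start: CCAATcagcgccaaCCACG
Hspa5, chr2:34772025-34772043, plus strand, 65 bases before the start: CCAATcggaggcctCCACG
Pdia6, chr12:17266491-17266509, plus strand, 98 bases before the start: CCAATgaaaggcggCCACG
Syvn1, chr19:6046532-6046550, plus strand, 44 bases before the start: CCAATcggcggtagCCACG
Hsp90b1 held the motif at 2 places, 107 and 212 bases before its start. The 250 bases before the Derl3 start follow, on the plus strand, with the site in capitals as it reads on that strand, the reverse complement of the form above.
Derl3 upstream, chr10:75893148-75893397: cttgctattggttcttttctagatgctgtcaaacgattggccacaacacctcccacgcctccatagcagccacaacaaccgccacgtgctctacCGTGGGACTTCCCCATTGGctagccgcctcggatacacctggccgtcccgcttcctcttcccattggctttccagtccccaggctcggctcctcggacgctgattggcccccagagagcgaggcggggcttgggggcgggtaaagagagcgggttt
The sequence TGACGTGG, a site described for XBP1 protein, was searched on both strands and counted apart from the first motif, and 222 promoters (0.676%) held it. None of the 6 member promoters did. A match or its absence describes the letters in this window only. On the mm10 annotation Jchain lies on chromosome 5 (88519809 to 88527891, minus strand), Xbp1 on chromosome 11 (5520659 to 5525893, plus strand), Prdm1 on chromosome 10 (44437177 to 44528501, minus strand), Sdc1 on chromosome 12 (8771323 to 8793715, plus strand) and Coch on chromosome 12 (51593341 to 51605771, plus strand).

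In all, 20897 IL-27 barcodes carried 80121995 UMIs (unique molecular identifiers, each counted as 1 RNA molecule). The PBS barcodes were 12276, with 43501501 UMIs. By their suffixes, the barcodes came from 3 IL-27 wells and 2 PBS wells, and no label ties a well to an animal. Y-linked UMIs, 3074 in all, were found in PBS well 2 and in no other well. After filters 19972 IL-27 and 11693 PBS cells were kept, with medians of 3053 UMIs in IL-27 and 2946 UMIs in PBS cells. Pairs of wells shared 46 to 71 barcodes, 0.805% to 1.08% of the smaller well, and the libraries shared 355 (2.90% of the PBS barcodes). With 1 library per group, no p-values are given. Levels are UMIs summed over the cells of a class and divided by all UMIs of those cells, in CPM (parts per 1e+06), and intervals are exact 95% intervals that cover counting error only.

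Cells were assigned to classes by their raw UMIs. The plasma gate took cells with at least 20% of UMIs from immunoglobulin genes and none from the CD3 genes, which gave 21 IL-27 and 9 PBS cells. Their immunoglobulin share ran from 22.3% to 59.2% with a median of 37.9%. In B cells the median was 1.27%, with a highest value of 19.95%. By well the gate held 0, 3 and 18 cells in IL-27 wells 1 to 3, and 4 and 5 cells in PBS wells 1 and 2. IL-27 well 3 supplied most of the IL-27 plasma cells. No member was used in the gate. At its edge, the 3 cells just inside it (22.3%, 23% and 27.3% immunoglobulin) held 408, 66 and 1035 Jchain UMIs. The 3 cells just outside (19.95%, 19.8% and 19.1%) held 329, 467 and 362. The count of 66 is from a cell of 1396 UMIs. The other classes held 70 IL-27 and 80 PBS plasmacytoid dendritic cells (at least 2 Siglech UMIs), 10859 IL-27 and 7610 PBS B cells, and 1013 IL-27 and 368 PBS CD8 T cells. Of the B identity list, 17 of 17 genes were at least 2-fold lower in plasma than in B cells in each library, as were 59.8% in IL-27 and 65% in PBS of all genes with at least 20 UMIs in 1 class. Some genes of the list are markers of the B gate. The whole list summed to 5529 CPM in IL-27 and 5288 CPM in PBS plasma cells, against 36483 CPM in IL-27 and 36086 CPM in PBS B cells.

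**Figure D1:**
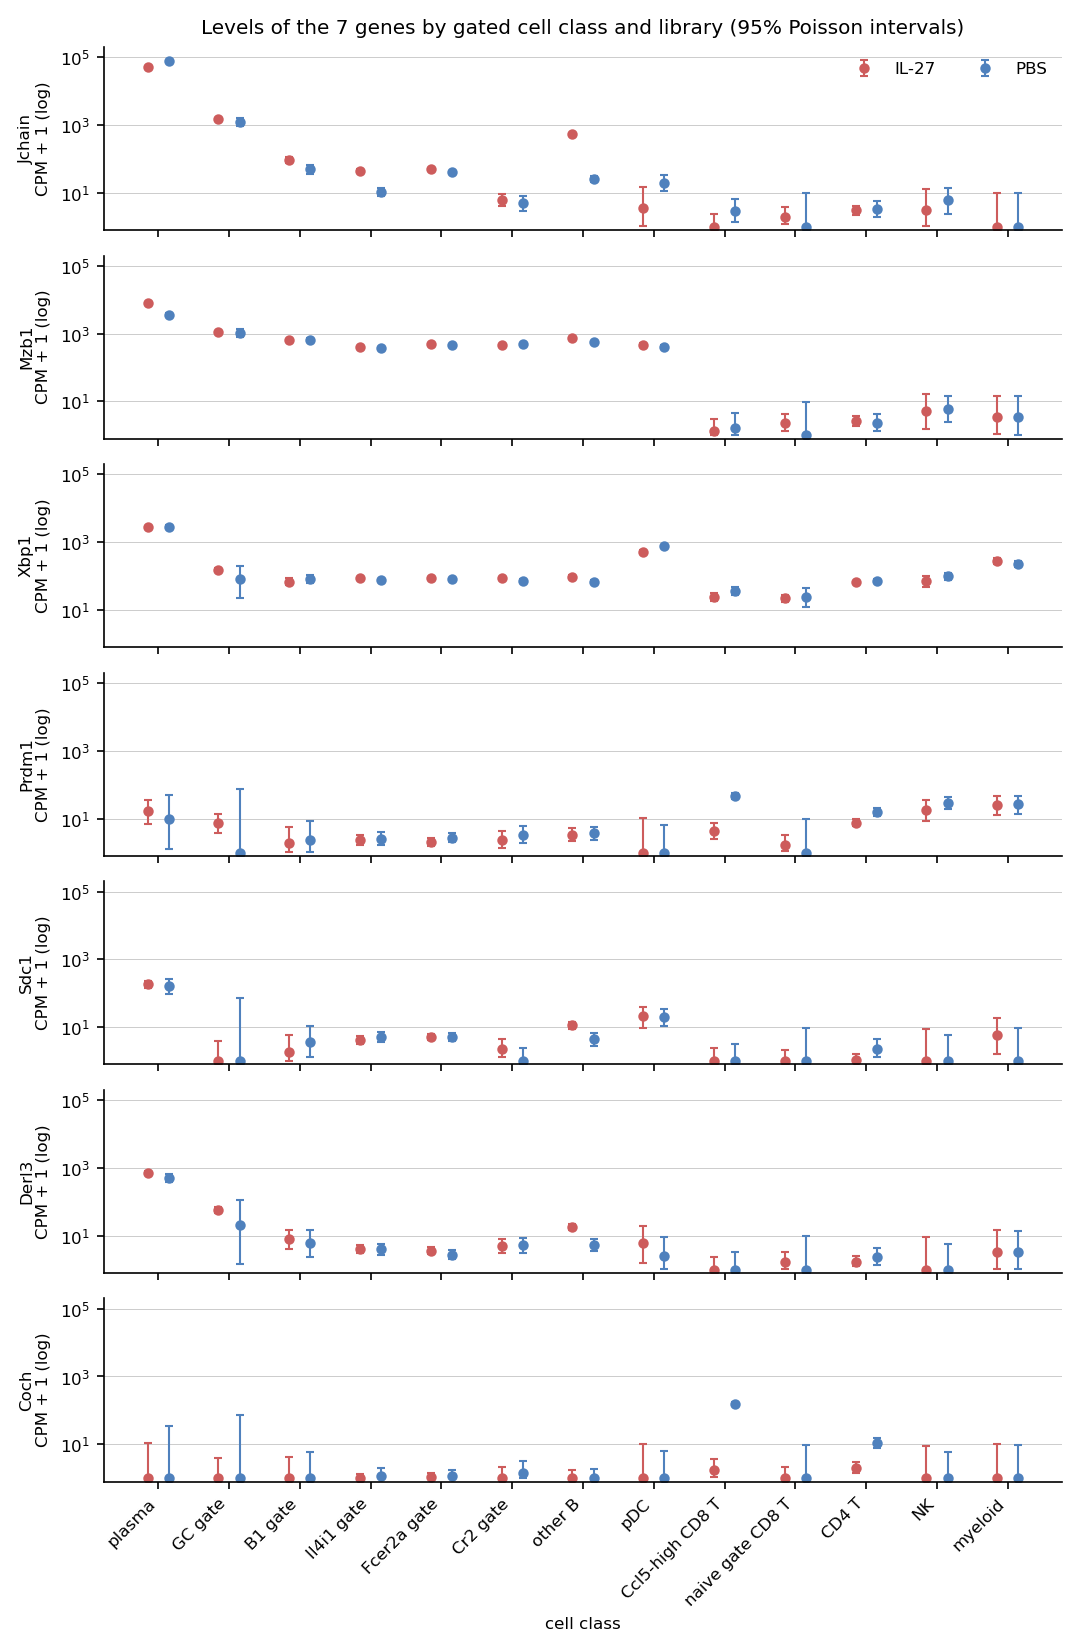
Level of each of the 7 genes, as CPM + 1 on a log axis, in 13 cell classes (IL-27 in red on the left of each pair, PBS in blue on the right, 1 library each, bars for exact 95% counting intervals). Jchain stands at 52177 CPM in IL-27 and 79053 CPM in PBS plasma cells, Xbp1 is next highest in plasmacytoid dendritic cells, and Coch is seen mainly in the PBS Ccl5-high CD8 T cells.

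Of the 7 genes, 6 were at least 2-fold higher in plasma than in B cells in each library, where 6.05% of 16130 detected genes in IL-27 and 5.69% of 15661 in PBS were, and none of the 7 was 2-fold lower, where 42.8% in IL-27 and 46.1% in PBS were. Since the list was chosen with these levels known, the count is a description. Jchain was at 58196 CPM in IL-27 well 2 and 51595 CPM in IL-27 well 3, and at 39654 CPM in PBS well 1 and 102988 CPM in PBS well 2. All 30 plasma cells held it, with 237 to 2749 UMIs per IL-27 cell (median 905) and 66 to 2977 per PBS cell (median 623), and the ranges overlap. Jchain was 313-fold higher in plasma than in B cells in IL-27 (304 to 322) and 2748-fold higher in PBS (2538 to 2979). The B cells stood at 167 CPM in IL-27 and 28.8 CPM in PBS.

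Of the genes of the endoplasmic reticulum, Mzb1 was found in all 30 plasma cells and Derl3 in 17 of 21 IL-27 and 7 of 9 PBS plasma cells. Mzb1 was at 3452 CPM in IL-27 well 2 and 8290 CPM in IL-27 well 3, against 5431 CPM in PBS well 1 and 2464 CPM in PBS well 2. IL-27 well 3 was above both PBS wells and IL-27 well 2 lay between them. Derl3 was at 367 and 757 CPM in IL-27 wells 2 and 3, against 427 and 562 CPM in PBS wells 1 and 2, so the wells of the groups overlap. Over B cells, Mzb1 was 15.2-fold higher in IL-27 and 7.64-fold higher in PBS plasma cells, and Derl3 103-fold (86.5 to 123) higher in IL-27 and 172-fold (119 to 248) higher in PBS plasma cells.

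Among the regulators, Xbp1 stood at 2814 CPM in IL-27 and 2886 CPM in PBS plasma cells, 31.1-fold above B cells in IL-27 and 38.7-fold above them in PBS. By well it was at 5254 and 2578 CPM in IL-27 wells 2 and 3, against 1968 and 3444 CPM in PBS wells 1 and 2, with overlap of the groups. The matrices count the gene as a whole and do not separate its spliced, active RNA. Prdm1 was detected by 6 UMIs in 6 of 21 IL-27 plasma cells, all of well 3, and by 1 UMI in 1 of 9 PBS plasma cells, of well 1. That is 16.2 CPM (5.94 to 35.2) in IL-27 and 8.96 CPM (0.227 to 49.9) in PBS plasma cells, or 10.7-fold (3.76 to 25.0) over B cells in IL-27 and 4.76-fold (0.118 to 28.0) in PBS. Prdm1 was not highest in plasma cells. It stood at 17.2 CPM in IL-27 and 28.3 CPM in PBS natural killer cells, and at 24.2 CPM in IL-27 and 26.1 CPM in PBS myeloid cells. With cells thinned to 1000 UMIs no Prdm1 UMI remained in a plasma cell, so its place above B cells rests on 7 UMIs in deep cells (median 17923 UMIs in IL-27 and 14563 in PBS, against 2823 in IL-27 and 2782 in PBS B cells).

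At the surface, Sdc1 was detected in 19 of 21 IL-27 and 6 of 9 PBS plasma cells. Its level was 122 and 192 CPM in IL-27 wells 2 and 3, against 94.9 and 202 CPM in PBS wells 1 and 2, and it was 43.9-fold (32.5 to 58.9) over B cells in IL-27 and 46.1-fold (26.0 to 77.5) in PBS. Coch did not follow the other 6. It had 0 UMIs in the plasma gate of either library, which allows up to 8.09 CPM in IL-27 and 26.9 CPM in PBS (3 counts over each class), or a share of cells with a UMI of up to 14.3% of 21 IL-27 and 33.3% of 9 PBS cells. Coch therefore did not mark antibody-secreting cells at this depth, whatever the name of the gene group.

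Plasma cells were also described by the heavy chain they made. The most abundant heavy chain constant gene was Ighg1 in 12 IL-27 and 0 PBS cells, Igha in 6 IL-27 and 5 PBS cells, Ighm in 2 IL-27 and 3 PBS cells, Ighg2c in 1 IL-27 cell and Ighg2b in 1 PBS cell. That gene held 80.8% of the heavy chain UMIs in the Ighg2c cell and at least 92.9% in each of the others. All IgG genes together marked 13 of 21 IL-27 and 1 of 9 PBS plasma cells. Per 10000 UMIs of a cell, Jchain had a median of 366 in the 12 Ighg1 cells (173 to 1000). It was 958 in the 11 Igha cells (261 to 1918) and 790 in the 5 Ighm cells (473 to 1143). These ranges overlap, and the split by heavy chain was chosen after the values were seen. Within IL-27 well 3 alone the medians were 395 in 11 Ighg1 cells, 711 in 4 Igha cells and 977 in 2 Ighm cells. Mzb1 medians over all wells were in another order, with 82.3 per 10000 UMIs in Ighg1 cells (18.0 to 291), 32.5 in Igha cells (13.0 to 82.1) and 21.2 in Ighm cells (8.32 to 38.5), and with 82.8, 34.5 and 17.9 for the same genes within IL-27 well 3. PBS well 1 had another order, with Jchain at 261 in 1 Igha cell, 428 in 1 Ighg2b cell and a median of 499 in 2 Ighm cells. Mzb1 in that well was at 82.1 in the Igha cell, 55.6 in the Ighg2b cell and 17.7 in the Ighm cells.

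**Figure D2:**
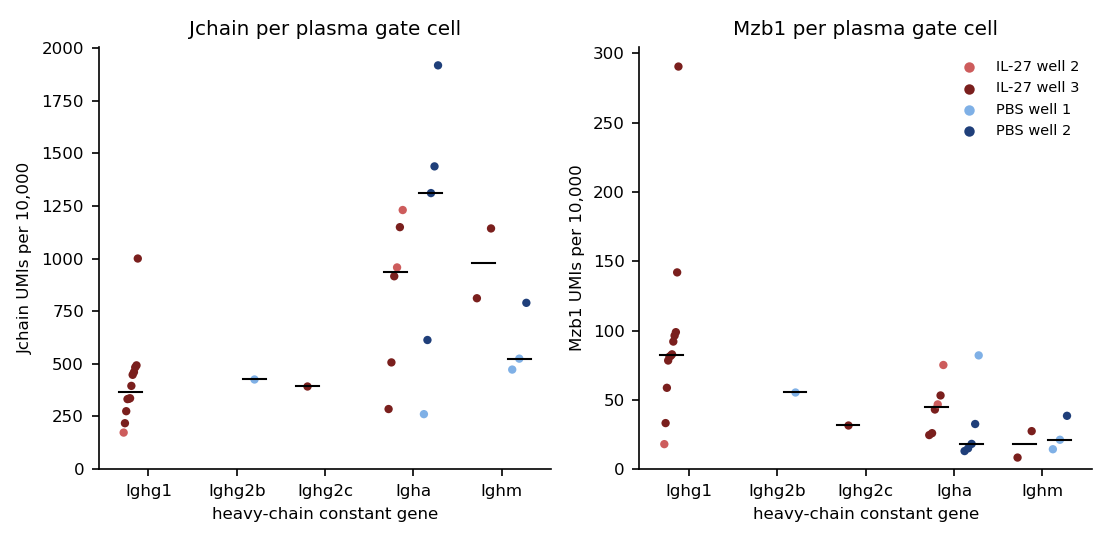
Jchain (left) and Mzb1 (right) per 10000 UMIs of each of the 30 plasma gate cells, by the heavy chain constant gene with most UMIs, coloured by well, with bars for the median of each library (IL-27 left, PBS right). Ighg1 cells, all from the IL-27 library, have a median of 366 for Jchain and 82.3 for Mzb1, and Igha cells of both libraries together 958 and 32.5.

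Between the groups, 1 gene of the 6 detected was at least 2-fold higher in IL-27 plasma cells and none was at least 2-fold lower. In the same comparison 36.2% of 9358 detected genes were higher and 20.3% lower (13.9% and 2.95% of the 1322 genes with at least 20 UMIs in 1 group), so shifts of this size were common. Mzb1 was at 7863 CPM in IL-27 and 3585 CPM in PBS plasma cells (ratio 2.19, 1.97 to 2.44), but without IL-27 well 3 the log2 ratio was -0.05, against 1.13 with it. Jchain was at 52177 CPM in IL-27 and 79053 CPM in PBS plasma cells (ratio 0.660, 0.644 to 0.677), and its log2 ratio of -0.60 ran from -0.98 to 0.40 when 1 well was left out. Derl3 had a ratio of 1.41 (1.06 to 1.92), Sdc1 of 1.15 (0.678 to 2.06) and Xbp1 of 0.975 (0.860 to 1.11). The make-up of the plasma cells by heavy chain differed between the groups as given above, and its part in these ratios was not tested.

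In B cells, Jchain was found in 312 of 10859 IL-27 cells (2.87%), against 148 of 7610 PBS cells (1.94%), or 1.41% in IL-27 and 0.741% in PBS after thinning to 1000 UMIs. Its level was 125, 19.0 and 307 CPM in IL-27 wells 1 to 3, against 44.7 and 14 CPM in PBS wells 1 and 2. IL-27 wells 1 and 3 were above both PBS wells, and IL-27 well 2 lay between them. Most of this RNA was in a few cells. The 36 IL-27 and 1 PBS B cells with at least 20 Jchain UMIs held 83.4% of the IL-27 and 55.1% of the PBS B cell total, and the rest of the B cells stood at 28.2 CPM in IL-27 and 12.9 CPM in PBS.

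The 13 such cells outside the germinal centre gate (12 IL-27, 1 PBS) had a median immunoglobulin share of 7.32%, below the plasma gate. Together they held 19740 CPM of Jchain, 8151 of Mzb1, 1297 of Xbp1, 61 of Prdm1, 229 of Sdc1 and 376 of Derl3, and 0 of Coch. They also held 234 CPM of Tnfrsf17, the receptor BCMA of plasma cells, 371 CPM of Irf4 and 188 CPM of Ms4a1, the B cell antigen CD20, where plasma gate cells had 87.0, 139 and 41.4 CPM of these genes in the same order. These are sums over the 13 cells and do not show the genes within the same cells. These cells were picked by their Jchain count, and their Jchain level is a consequence of that choice.

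B subsets were split by marker UMIs. The germinal centre gate (at least 2 genes of a marker list that includes Mef2b, S1pr2, Rgs13 and Gcsam) took 114 IL-27 and 9 PBS cells, and Jchain was present in 107 of the IL-27 cells (93.9%) and 6 of the PBS cells (66.7%), or 61.4% in IL-27 and 62.5% in PBS after thinning. It stood at 2758, 691 and 1310 CPM in IL-27 wells 1 to 3 and at 1472 CPM in PBS well 1, and at 0 in the 2 cells of PBS well 2. The median was 9 UMIs per IL-27 cell and 8 per PBS cell, so most cells of the gate held some Jchain. The amount was less even. The 24 IL-27 gate cells with at least 20 Jchain UMIs held 1279 of the 1939 in that library's gate. Without them 844 CPM was left in IL-27. In IL-27 well 1, 3 such cells held 80.7% of the gate's Jchain UMIs, and 740 CPM was left without them. No PBS cell of the gate reached 20 UMIs. Over B cells of the Fcer2a gate, which have the low-affinity IgE receptor CD23 of follicular B cells, Jchain was 30.1-fold (27.6 to 32.9) higher in IL-27 and 31.3-fold (23.5 to 41.0) higher in PBS. In the Fcer2a gate itself 1 cell of each library held 92.4% of the IL-27 and 91.4% of the PBS Jchain UMIs, and the other cells stood at 3.8 CPM in IL-27 and 3.38 CPM in PBS.

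**Figure D3:**
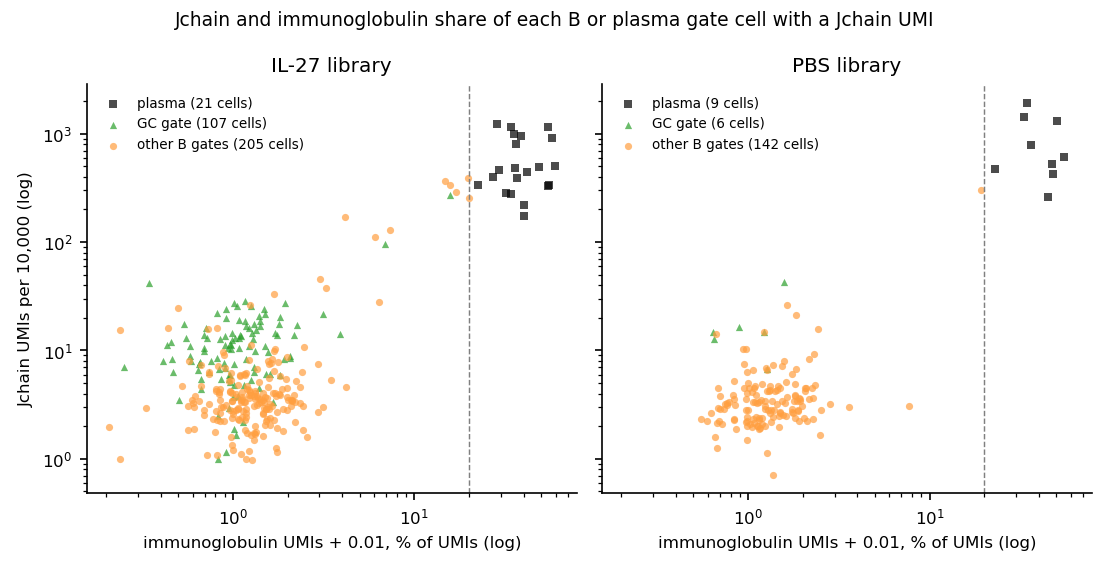
Jchain UMIs per 10000 UMIs of the cell (vertical, log axis) against the immunoglobulin share of its UMIs in percent (horizontal, log axis) for each B or plasma gate cell with a Jchain UMI, with IL-27 on the left and PBS on the right and a dashed line at the 20% of the plasma gate. The 21 IL-27 and 9 PBS plasma cells lie to the right of the line, the 107 IL-27 and 6 PBS germinal centre gate cells to the left of it, as do 205 IL-27 and 142 PBS cells of the other B gates.

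Other members did not all follow Jchain into the germinal centre gate. In that gate 4 of 7 genes were at least 2-fold higher than in the Fcer2a gate in IL-27 (10.9% of all detected genes) and 3 of 7 in PBS (12%), and 1 in IL-27 (14%) and 2 in PBS (36.1%) were at least 2-fold lower. Mzb1 stood at 1088 CPM in IL-27 and 1070 CPM in PBS, 2.26-fold (2.14 to 2.40) above the Fcer2a gate in IL-27 and 2.35-fold (1.77 to 3.08) in PBS. Derl3 was 21.8-fold (14.5 to 33.3) higher in IL-27, at 207, 7.94 and 26.7 CPM in IL-27 wells 1 to 3, with 36 of the 47 UMIs of well 1 in 1 cell, and had 1 UMI in PBS (11.1-fold, 0.266 to 70.3). Prdm1 had 8 UMIs in IL-27 (5.89-fold, 2.16 to 14.8), 5 of them in 1 cell, and 0 in PBS. Sdc1 had 0 UMIs in the gate of either library, which allows up to 2.33 CPM in IL-27 and 59.4 CPM in PBS, against 4.14 CPM in IL-27 and 4.16 CPM in PBS Fcer2a gate cells. Leaving aside the 5 gate cells with an immunoglobulin share of at least 3%, the other 118 held 1112 CPM of Jchain, in 109 cells, together with 934 CPM of Ms4a1.

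In the remaining B gates Jchain was lower. The B1 gate (at least 2 of Bhlhe41, Zbtb32 and Fcrl5) had it in 11.4% of 166 IL-27 and 11.8% of 127 PBS cells, at 94.3 CPM in IL-27 and 48.6 CPM in PBS. In that gate 2 IL-27 cells held 58.2% of the IL-27 total, and without them 40.1 CPM was left in IL-27, below the PBS level. The Cr2 gate, with complement receptor 2 and no Fcer2a, stood at 5.24 CPM in IL-27 and 3.99 CPM in PBS, and the Il4i1 gate at 44.4 CPM in IL-27 and 9.75 CPM in PBS. In the Il4i1 gate 2 IL-27 cells held 83.0% of the total of that library, and 7.57 CPM was left in IL-27 without them. B cells in none of these gates stood at 530 CPM in IL-27 and 24.4 CPM in PBS, and 7 IL-27 cells held 96.0% of the IL-27 total, without which 21.9 CPM was left. Mzb1 was broad by comparison, found in 68.0% of 10859 IL-27 and 67.0% of 7610 PBS B cells, at 518 CPM in IL-27 and 469 CPM in PBS. It was highest in the germinal centre gate, followed by the other B cells (752 CPM) and the B1 gate (631 CPM) in IL-27 and by the B1 gate (666 CPM) in PBS, and lowest in the Il4i1 gate (389 CPM in IL-27, 387 CPM in PBS). The other B cells of PBS stood at 549 CPM. The 7 IL-27 cells above are among the 13 that held 8151 CPM of Mzb1, and their part in the 752 CPM was not tested. The Cr2 gate (463 CPM in IL-27, 499.97 CPM in PBS) and the Fcer2a gate (481 CPM in IL-27, 455 CPM in PBS) changed order between the libraries.

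Comparing the groups over all B cells, Jchain and Derl3 were at least 2-fold higher in IL-27 and none of the 7 was lower, where 0.491% of 16915 detected genes were higher and 0.39% lower. Jchain had a ratio of 5.80 (5.35 to 6.30, log2 2.50) and Derl3 of 2.35 (1.79 to 3.12, log2 1.01), while Mzb1 had 1.105 (1.08 to 1.13) and Xbp1 1.21 (1.14 to 1.29). Without B cells of at least 3% immunoglobulin, an alternative added after the data were seen, Jchain stood at 49.6 CPM in IL-27 and 12.9 CPM in PBS (log2 1.86), and Derl3 had a log2 ratio of 0.27. The Jchain log2 ratio came to 1.23 with IL-27 well 3 left out and to 3.48 with PBS well 1 left out. With doubled gate marker sums and the plasma gate at 40%, Derl3 was at least 2-fold higher and Jchain was not. Plasma cells under 40% immunoglobulin leave the plasma gate at this setting and may enter the B class. The highest Jchain count in such a cell was 2060 UMIs in IL-27 and 2977 in PBS. All B cells together held 5752 in IL-27 and 657 in PBS. The part of such cells in this result was not tested. Within the germinal centre gate the Jchain ratio was 1.22 (0.951 to 1.60), and its interval includes 1, while the gate held 114 IL-27 and 9 PBS cells. Erythroid RNA moved with this comparison, at 0, 6.42 and 727 CPM for the summed list in B cells of IL-27 wells 1 to 3, against 2.0 and 3.29 CPM in PBS wells 1 and 2, and all 5 erythroid genes were at 0 in plasma cells. The gastric epithelial list summed to 56.7, 11.8 and 6.05 CPM in IL-27 wells 1 to 3, against 7.28 and 14 CPM in PBS wells 1 and 2. The part of either in the result was not tested.

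**Figure D4:**
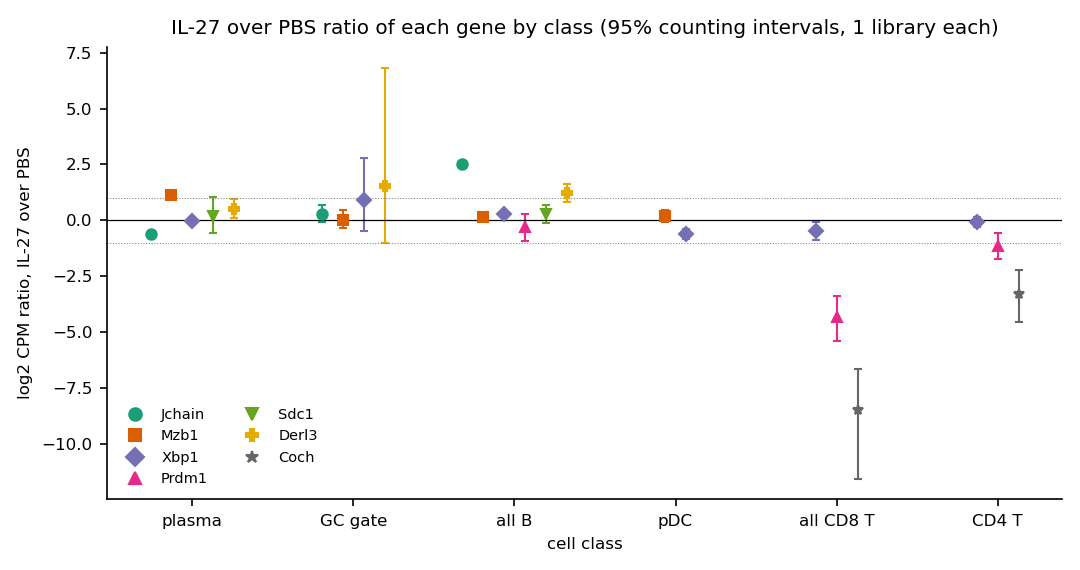
Log2 ratio of CPM, IL-27 over PBS, without a pseudocount, for each gene with at least 20 UMIs in 1 group and at least 1 UMI in the other, by cell class, with exact 95% counting intervals (1 library per group) and dotted lines at a 2-fold difference. Jchain and Derl3 lie above the upper line in all B cells (ratios 5.80 and 2.35), and Coch and Prdm1 lie below the lower line in CD8 T cells (ratios 0.00274 and 0.0498).

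Plasmacytoid dendritic cells, interferon-producing cells with a rich endoplasmic reticulum, shared Mzb1 and Xbp1 with the antibody-secreting line. Their Jchain lay far below that of plasma cells. Of the 7 genes, Xbp1 and Sdc1 were at least 2-fold higher than in B cells in each library (14.7% of all detected genes in IL-27, 16.4% in PBS). At least 2-fold lower were Jchain and Prdm1 in IL-27 and Prdm1 in PBS (15.3% of all detected genes in IL-27, 14.4% in PBS). Prdm1 had 0 UMIs in these cells, against 1.51 CPM in IL-27 and 1.88 CPM in PBS B cells. Its ratio intervals, 0 to 6.38 in IL-27 and 0 to 2.98 in PBS, include 1. The lower call for Prdm1 rests on 0 UMIs, which allows up to 7.55 CPM in IL-27 and 4.38 CPM in PBS, above the B cell levels. Xbp1 was found in 87.1% of 70 IL-27 and 91.3% of 80 PBS cells. It stood at 393, 583 and 616 CPM in IL-27 wells 1 to 3, against 291 and 814 CPM in PBS wells 1 and 2, so that the PBS wells lie on either side of the IL-27 wells. Over B cells it was 5.59-fold (4.82 to 6.45) higher in IL-27 and 10.4-fold (9.40 to 11.4) higher in PBS. Between the groups the ratio was 0.653 (0.552 to 0.770), and without PBS well 2, which held 70 of the 80 PBS cells, the log2 ratio was 0.80 in place of -0.61.

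Mzb1 in plasmacytoid dendritic cells was near its level in B cells, at 306, 493 and 688 CPM in IL-27 wells 1 to 3 and 330 and 421 CPM in PBS wells 1 and 2, with ratios to B cells of 0.903 (0.778 to 1.04) in IL-27 and 0.883 (0.782 to 0.994) in PBS. Sdc1 had 8 UMIs in IL-27, all in well 1 (43.7 CPM there), and 13 in PBS (19.4 and 18.9 CPM in wells 1 and 2), 4.75-fold (2.01 to 9.61) over B cells in IL-27 and 5.41-fold (2.76 to 9.79) in PBS. Jchain was seen by 1 UMI in IL-27 and by 13 UMIs in 5 PBS cells, 8 of them in 1 cell. Its level was 2.52 CPM in IL-27 and 19.0 CPM in PBS. The ratio to B cells was 0.0151 (0.000382 to 0.0840) in IL-27 and 0.659 (0.349 to 1.13) in PBS, where the interval includes 1. Prdm1 and Coch had 0 UMIs, which allows up to 7.55 CPM in IL-27 and 4.38 CPM in PBS, and Derl3 had 2 UMIs in IL-27 and 1 in PBS. The gate itself was supported by its other markers, among them Klk1 at 1953 CPM in IL-27 and 3070 CPM in PBS and Ccr9 at 657 CPM in IL-27 and 1103 CPM in PBS, against at most 1.58 CPM of these genes in B cells.

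By class, the order of Xbp1 levels was plasma, plasmacytoid dendritic, myeloid (280.5 CPM in IL-27, 223 CPM in PBS), and in IL-27 the germinal centre gate at 148 CPM. In PBS that gate stood at 79.3 CPM on 4 UMIs, among the B, natural killer and CD4 T cells, which lay between 65.1 and 97.6 CPM and changed order between the groups. CD8 T cells were lower, at 23.8 CPM in IL-27 and 33.4 CPM in PBS. Xbp1 in CD8 T cells was 0.365-fold (0.303 to 0.438) its level in CD4 T cells in IL-27 and 0.486-fold (0.366 to 0.639) in PBS. Mzb1 was at or below 1.69 CPM in both T cell classes of either library, in 0.592% of IL-27 and 0.543% of PBS CD8 T cells.

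The endoplasmic reticulum secretory list, which overlaps no member, was read in the same cells. In plasma over B cells, 37 of its 42 genes in IL-27 and 33 of 42 in PBS were at least 2-fold higher and none was 2-fold lower. Of all genes with at least 20 UMIs in 1 class, 5.67% in IL-27 and 6.23% in PBS were higher and 59.8% in IL-27 and 65% in PBS lower. The list had a median log2 ratio of 2.73 in IL-27 and 2.16 in PBS beside -1.28 in IL-27 and -1.53 in PBS for all genes with at least 20 UMIs. Edem1, which steers misfolded glycoproteins to degradation, was at 1439 CPM in IL-27 plasma and 43.1 CPM in IL-27 B cells, and at 529 CPM in PBS plasma and 34.4 CPM in PBS B cells. Fkbp11, a peptidyl-prolyl isomerase of secretory cells, was at 318 CPM in IL-27 plasma and 9.46 CPM in IL-27 B cells, and at 170.3 CPM in PBS plasma and 10.8 CPM in PBS B cells. The lowest ratios were those of Ddit3 (10.8 CPM in plasma, 19.9 CPM in B cells) and Canx (129 CPM in plasma, 113 CPM in B cells) in IL-27, and of Atf4 (80.7 CPM in plasma, 136 CPM in B cells) and Os9 (26.9 CPM in plasma, 40.9 CPM in B cells) in PBS.

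Genes whose promoters hold the ER stress response element, named because of that motif, ranged widely in the same comparison. Derl3 is a member chosen with its levels known, so its rank among them is given as a description. The log2 ratio of plasma over B cells was 6.5 in IL-27 and 7.01 in PBS for Derl3, the highest of the 9 in each library. It was 4.83 in IL-27 and 3.83 in PBS for Creld2, 4.08 in IL-27 and 2.87 in PBS for Hsp90b1, and 3.26 in IL-27 and 2.35 in PBS for Dnajc3. Lower ratios were those of Hspa5 (2.74 in IL-27, 0.97 in PBS), Pdia6 (2.43 in IL-27, 2.21 in PBS) and Calr (1.67 in IL-27, 1.55 in PBS). Syvn1 had 0.71 in IL-27 and 0.78 in PBS, and Canx 0.19 in IL-27 and 0.20 in PBS. Of the 9, Canx and Syvn1 were less than 2-fold apart in both libraries and Hspa5, the chaperone BiP, in PBS. Between the groups, 8 of 40 list genes were at least 2-fold higher in IL-27 plasma cells and 1, Txndc5, lower, where 13.9% of all genes with at least 20 UMIs in 1 group were higher and 2.95% lower. The list had a median log2 ratio of 0.57 beside 0.22 for all genes. Hspa5 was at 1286 CPM in IL-27 and 341 CPM in PBS plasma cells, and Hsp90b1, the chaperone GRP94, at 4704 CPM in IL-27 and 1999 CPM in PBS. With 18 of the 21 IL-27 plasma cells from IL-27 well 3, the part of that well in these differences was not tested. In B cells and in plasmacytoid dendritic cells no list gene was 2-fold apart between the groups.

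In plasmacytoid dendritic cells over B cells, 26 of the 42 list genes in IL-27 and 30 in PBS were at least 2-fold higher and 2 in each library lower. Of all genes with at least 20 UMIs in 1 class, 14.5% in IL-27 and 14.4% in PBS were higher and 21.5% in IL-27 and 20.5% in PBS lower. The list had a median log2 ratio of 1.12 in IL-27 and 1.36 in PBS beside -0.09 for all genes in each. Ern1, the sensor IRE1 whose RNase splices Xbp1 RNA, was at 80.5 CPM in IL-27 and 67.1 CPM in PBS, against 2.79 CPM in IL-27 and 2.85 CPM in PBS B cells. Fkbp11 and Syvn1 went the other way, with Fkbp11 at 2.52 CPM in IL-27 and 2.92 CPM in PBS plasmacytoid dendritic cells, against 9.46 CPM in IL-27 and 10.8 CPM in PBS B cells. The plasma cell identity list had 12 of 16 genes in IL-27 and 9 of 14 in PBS at least 2-fold higher in plasma than in B cells, and 2 in IL-27 and 3 in PBS lower, beside the 5.67% (IL-27) and 6.23% (PBS) of all genes higher and the 59.8% (IL-27) and 65% (PBS) lower given above. Fam46c was at 380.1 CPM in IL-27 plasma and 3.05 CPM in IL-27 B cells, and at 367 CPM in PBS plasma and 1.27 CPM in PBS B cells. Cxcr4, a homing receptor, was lower, at 13.5 CPM in IL-27 plasma and 51.8 CPM in IL-27 B cells, and at 0 in PBS plasma and 55.4 CPM in PBS B cells.

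In CD8 T cells, Coch was found in 2 of 1013 IL-27 cells (0.197%), against 91 of 368 PBS cells (24.7%, 20.4% to 29.5%), or 0.0990% in IL-27 and 11.99% in PBS after thinning to 1000 UMIs. All 91 PBS cells came from well 2. Among Ccl5-high CD8 T cells, those with at least 2 UMIs of the chemokine Ccl5, the numbers were 0 of 231, 1 of 106 and 1 of 84 cells in IL-27 wells 1 to 3, against 0 of 105 cells in PBS well 1 and 89 of 188 cells (47.3%) in PBS well 2. CD8 T cells with no Ccl5 and a UMI of a naive marker list that includes Lef1 and Ccr7 had none, 0 of 504 in IL-27 and 0 of 60 in PBS. This allows shares of up to 0.595% in IL-27 and 5% in PBS. Only 4 of these 60 PBS cells came from well 2, too few to show whether such cells of that well lack Coch. CD8 T cells of PBS well 2 in neither gate held it in 2 of 5. The level in Ccl5-high cells was 0.766 CPM in IL-27 and 151 CPM in PBS, and 262 CPM in PBS well 2. Coch-positive cells of that well had a median of 2 Coch UMIs and a highest count of 12, so the gene was low in each cell.

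Free RNA in the wells was gauged from cells that should lack the gene. In PBS well 2, Coch was in 4 of 3608 B cells (0.111%) and in 8 of 206 CD4 T cells (3.88%, 30 UMIs, 11 of them in 1 cell), and in 0 of 67 myeloid cells, beside 46.2% of 197 CD8 T cells. Median depths over the PBS library were 5638.5 UMIs in CD8 T, 3736 in CD4 T and 2782 in B cells. The share in CD8 T cells was thus above that in each of these classes, and after thinning it was 22.4% in CD8 T and 2.49% in CD4 T cells of the well. In IL-27 well 3, 3 of 666 CD4 T cells held 9 Coch UMIs. The class with most Coch next to these was the ungated cells of PBS well 2, 41 of which held 125 UMIs.

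**Figure D5:**
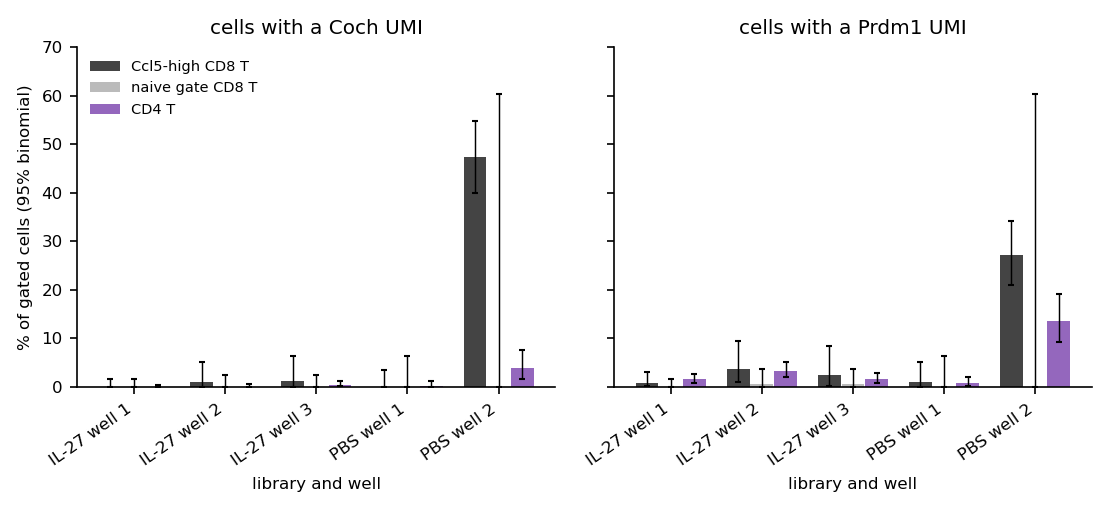
Percent of gated cells with a Coch UMI (left) and with a Prdm1 UMI (right) in each well, IL-27 wells before PBS wells, for Ccl5-high CD8 T, naive gate CD8 T and CD4 T cells, with exact 95% binomial intervals. PBS well 2 stands apart, with Coch in 47.3% and Prdm1 in 27.1% of its Ccl5-high CD8 T cells.

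PBS well 2 is the only well with Y-linked RNA, so the well and the sex of the cells cannot be told apart for Coch. Of male-called CD8 T cells (Y-linked UMIs but none of Xist), 38 of 77 (49.4%) held Coch, all from that well. The female-called cells (Xist UMIs but none that were Y-linked) held it in 0 of 852 in IL-27 and in 0 of 151 in PBS. Of those 151, 5 were from PBS well 2. Among cells of PBS well 2 with neither call, 53 of 115 held it. The 2 IL-27 cells with Coch had no call. The difference between the groups in Coch, 0.319 CPM in IL-27 and 117 CPM in PBS CD8 T cells (ratio 0.00274, 0.000330 to 0.010, log2 -6.48 with 1 CPM added), came from that well, and without it the log2 ratio was 0.40 on 2 IL-27 UMIs.

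Prdm1 followed the same well. In Ccl5-high CD8 T cells it stood at 1.42, 7.96 and 3.46 CPM in IL-27 wells 1 to 3, against 1.46 CPM in PBS well 1 and 77.7 CPM in PBS well 2. PBS well 2 was above every other well, and PBS well 1 lay within the IL-27 range. In CD4 T cells it was at 3.73, 12.6 and 4.20 CPM in IL-27 wells 1 to 3, against 1.87 CPM in PBS well 1 and 45.4 CPM in PBS well 2, so the same well was highest there too. Over all CD8 T cells Prdm1 and Coch were at least 2-fold lower in IL-27 than in PBS and none of the 7 was higher, where 9.83% of 14488 detected genes were lower and 1.57% higher. Without PBS well 2 the Prdm1 log2 ratio was 0.55, against -3.72 with it. In CD8 T relative to CD4 T cells, Coch (11.5-fold, 7.90 to 17.3) and Prdm1 (2.35-fold, 1.60 to 3.46) were at least 2-fold higher in PBS (5.18% of all detected genes), and none of the 7 was higher in IL-27 (2.06%). At least 2-fold lower were Xbp1 and Prdm1 in IL-27 (9.3%) and Xbp1, Sdc1 and Derl3 in PBS (7.75%), Sdc1 and Derl3 at 0 UMIs in PBS CD8 T and 4 UMIs each in PBS CD4 T cells. In IL-27, Prdm1 stood at 1.76 CPM in CD8 T and 6.66 CPM in CD4 T cells.

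Within the Ccl5-high CD8 T cells of PBS well 2, Coch and Prdm1 were found together in 24 cells. Coch alone was in 65, Prdm1 alone in 27 and neither in 72. Prdm1 was thus in 27.0% of Coch-positive and 27.3% of Coch-negative cells at median depths of 4406 and 4147 UMIs. Pdcd1, which encodes the inhibitory receptor PD-1, was at 1260 CPM in Coch-positive and 933 CPM in Coch-negative cells of the well and 18.8 CPM in the other wells. Lag3, an inhibitory receptor, and Tox, a transcription factor of chronically stimulated T cells, were at 819 and 487 CPM in Coch-positive cells, 640 and 368 CPM in Coch-negative cells and 34.6 and 43.4 CPM in the other wells. Not all effector genes had this order. Gzma, a granzyme, was at 2.31 CPM in Coch-positive cells, 19.8 CPM in Coch-negative cells and 101 CPM in the other wells, and Itgae, the integrin CD103, at 9.23, 37.6 and 9.70 CPM in the same cells. The naive list summed to 212 CPM in Coch-positive cells, 251 CPM in Coch-negative cells and 2147 CPM in the other wells, and the effector list to 55243, 44039 and 5649 CPM in the same order. Ccl5, the marker that gates these cells, made up 39959, 32626 and 3975.5 CPM of the effector sums. Of the 16 effector genes, 11 were higher in Coch-positive than in Coch-negative cells. The T cell receptor segment Trbv30, named after its value was seen, was in 80.9% of Coch-positive cells, 56.6% of Coch-negative cells and 0.760% of the cells of the other wells.

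Over both libraries, the genes with the highest ratio in Coch-positive over Coch-negative CD8 T cells (93 and 1288 cells) were Gm156 (246 and 8.56 CPM), Spp1 (1423 and 55.1 CPM), Csf1 (275 and 12.6 CPM), Glp1r (458 and 21.7 CPM) and Nrn1 (1066 and 58.3 CPM). Spp1 encodes osteopontin, Csf1 a growth factor of macrophages and Glp1r the GLP-1 receptor. Each was highest in PBS well 2 by well, at 174 to 880 CPM in its CD8 T cells and at most 109 CPM in any other well, so the ratios also carry the difference between wells. Within PBS well 2 the myeloid list was higher in Coch-positive cells for 5 of 6 genes and summed to 1345 CPM, against 455 CPM in Coch-negative cells, 138 CPM in the other wells and 38118 CPM in the myeloid cells of the well. Of the 5, Cst3 was at 1011 CPM in Coch-positive and 253 CPM in Coch-negative cells, and Lyz2 at 203 and 184 CPM. Itgam had 2 and 0 UMIs, and S100a8 and S100a9 each lay in 1.12% of Coch-positive cells. Csf1r, a defining marker of macrophages, was at 4.62 CPM in Coch-positive and 17.8 CPM in Coch-negative cells. The 3 MHC class II genes summed to 1546 and 597 CPM in the same order. Cd74 was in 38.2% of Coch-positive and 44.4% of Coch-negative cells, H2-Aa in 13.5% and 20.2%, and H2-Ab1 in 15.7% and 13.1%. No doublets were removed from this well, and their part in these values was not tested.

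Jchain in CD8 T cells was seen as single UMIs, in 4 of 1013 IL-27 cells (0.395%), against 3 of 368 PBS cells (0.815%), 0.639 CPM in IL-27 and 1.41 CPM in PBS. CD4 T cells, which do not make the J chain, had it in 18 of 2057 IL-27 cells (0.875%), against 7 of 682 PBS cells (1.03%), again 1 UMI per cell, at 2.03 CPM in IL-27 and 2.29 CPM in PBS. The CD8 T share was below that of CD4 T cells in each library, though in PBS well 2, which held all 3 PBS CD8 T cells with a UMI, it was 1.52% in CD8 T and 1.46% in CD4 T cells. The part of free RNA in these UMIs was not tested. CD8 T cells were the deeper class (medians of 6122 UMIs in IL-27 and 5638.5 in PBS, against 3733 in IL-27 and 3736 in PBS CD4 T cells). After thinning, 0 of 1010 IL-27 and 0 of 367 PBS CD8 T cells held it. By well the share in CD8 T cells was 0%, 0% and 1.59% in IL-27 wells 1 to 3, against 0% and 1.52% in PBS wells 1 and 2. The wells with the signal were those with most Jchain over all kept cells, 58.0, 97.4 and 887 CPM in IL-27 wells 1 to 3 and 183 and 427 CPM in PBS wells 1 and 2.

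The other members were near their floors in CD8 T cells. Sdc1 had 0 UMIs in either library, which allows up to 0.479 CPM in IL-27 and 1.41 CPM in PBS, and Derl3 had 2 UMIs in IL-27 and 0 in PBS. The 7 CD8 T cells with a Jchain UMI differed most from the 1374 without in Id2 (905 and 200.1 CPM), which encodes an inhibitor of helix-loop-helix factors, followed by Jund, Cycs, Dusp2 and Srsf3 with log2 ratios of 1.37 to 1.04. Id2 was at 1173 CPM in CD8 T cells of PBS well 2 and at most 119 CPM in any other well, and 3 of the 7 cells came from that well.

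Across 24 points of class and library, the genes most like each member by Pearson correlation of log2(CPM + 1) among 5616 genes were Fcrla (0.97), Ly6d (0.96) and Rab30 (0.96) for Mzb1. They were Necap2 (0.97), Syngr2 (0.95) and Scamp2 (0.94) for Xbp1, and Ccrl2 (0.92), Fgl2 (0.88) and Maf (0.87) for Prdm1. Derl3 was most like A530032D15Rik (0.90), Fgd2 (0.89) and Zfp706 (0.89), Coch like Ppp2r2c (0.87), Mphosph6 (0.84) and Ccng1 (0.83), and Sdc1 like Gm13919 (0.85), Kmo (0.85) and Pgls (0.84). Jchain had the lowest leading values, with Dennd5b (0.83), Tnfrsf13c (0.83) and Bcar3 (0.82). The points share 2 libraries, and classes needed at least 10 cells in each, so the plasma and germinal centre gates did not enter.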

How the data were processed

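The authors deposited, for each of the 2 groups, a filtered matrix of raw UMI counts per gene and cell, made with Cell Ranger 3.0.0 on mm10 per the submitters' processing notes, while 3.1.0 is the version written in the matrix headers. These deposited counts carry no normalization. Genes were 31053 per matrix, and 0 value columns had no sample. Cells with under 200 genes or over 10% mitochondrial UMIs were left out, then Scrublet calls in scanpy 1.11.5 for each well except PBS well 2, where under 0.5% were called and none was removed. Wells were read from barcode suffixes and are given side by side, untested. Classes were gated on raw UMIs as the report states: B cells by at least 3 UMIs over 2 or more genes of a list that includes Cd79a, Cd79b and Ms4a1, and CD8 T cells by CD3, Cd8a and Cd8b1 without Cd4. Some gate markers are not reported here. Log2 ratios add 1 CPM, ratios without "log2" add nothing, and a difference is counted at 2-fold. Intervals are exact (Poisson for levels, binomial for shares, conditional binomial for ratios), at 95%, and a count of 0 is given a floor of 3 counts. The ratio intervals were tested on simulated data. Thinning drew 1000 UMIs per cell. The members and lists were chosen with earlier results of these data known. Named genes were the members, the 3 genes most like each (at least 50 CPM in a point), the 5 genes of highest ratio in CD8 T cells with a Jchain or Coch UMI, and the 4 highest and 2 lowest of each list in plasma or plasmacytoid dendritic over B cells; markers of a gate may be named beside a result. Genes of the promoter motif, Hspa5, Irf4, heavy chain genes, Trbv30, MHC class II genes and effector genes such as Pdcd1 were named outside this rule, after values or motifs were seen. Python 3.11.15, numpy 2.4.6, scipy 1.17.1, pandas 2.3.3 and matplotlib 3.10.9 were used.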

Additional observations from a re-analysis of the deposited data

How the results depend on the processing

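No paired analysis was possible because each group is 1 library and no replicate number links them. Of 1147 values for 72 results under other settings, 875 stayed within the limits set, 260 moved and 12 log2 ratios past 2-fold changed direction; every value stayed within them without doublet removal and with a Scrublet threshold of 0.25. The cause of the changes was not tested. Directions turned for Prdm1, plasma over B, at -1.22 (IL-27) and -0.96 (PBS) thinned, -1.13 without IL-27 well 3 and -1.64 without PBS well 1 (highest with a well left out 2.94 in IL-27 and 3.23 in PBS); for Sdc1, plasmacytoid dendritic over B in IL-27, at -2.50 without IL-27 well 1 (highest 3.03); for Mzb1, IL-27 over PBS in plasma cells, at -0.055 without IL-27 well 3 (highest 1.67 without PBS well 1). In PBS CD8 T over CD4 T cells they turned at -0.61 (Prdm1) and -0.55 (Coch) without PBS well 2 and -0.62 (Coch) in cells called female (highest 1.18 for Prdm1 and 3.401 for Coch with a well left out), and in CD8 T cells, IL-27 over PBS, at 0.55 (Prdm1) and 0.40 (Coch) without PBS well 2 and 0.41 (Prdm1) in cells called female (lowest -4.77 for Prdm1 and -7.57 for Coch, without PBS well 1). Another 7 values of ratios under 2-fold changed sign: Jchain in plasma cells, IL-27 over PBS, at 0.40 without PBS well 2 and 0.38 in cells called female; Derl3 there at -0.48 without IL-27 well 3; Xbp1 in plasmacytoid dendritic cells at 0.80 without PBS well 2 and 0.38 in cells called female; and Coch, CD8 T over CD4 T in IL-27, at 0.41 thinned and 0.28 without IL-27 well 3. The count of members 2-fold higher in CD8 T over CD4 T cells of PBS was 1 thinned and 0 in cells called female, beside 2. In plasma cells, IL-27 over PBS, it was 0 with doubled gates (plasma at 40%), 2 with the plasma gate at 10%, 2 thinned and 0 in cells called female, beside 1. In B cells it was 1, beside 2, with doubled gates, where Derl3 was left and Jchain was not 2-fold higher. Plasma cells under 40% immunoglobulin may enter the B class at that setting, and their part was not tested. The count in B cells was also 1, with Jchain left, with the 10% gate, a mean over cells, thinning and a pseudocount of 5 CPM. The same held without B cells of at least 3% immunoglobulin, a setting added after the data were seen. The count 2-fold lower in CD8 T cells was 0 in cells called female, beside 2. The Coch share of CD8 T cells was 0 in IL-27 and 0 in PBS cells called female and 11.99% in PBS thinned; the Jchain share was 0 in IL-27 and 0 in PBS thinned and 0 in PBS cells called female. Leaving out 1 well at a time, members higher in plasma over B numbered 5 to 6 in IL-27 and 5 to 6 in PBS, in plasmacytoid dendritic over B 1 to 2 in IL-27 and 2 in PBS, and in CD8 T over CD4 T 0 in IL-27 and 0 to 2 in PBS. Between the groups, 0 to 2 were higher and 0 to 1 lower in plasma cells, 1 to 2 higher and 0 lower in B cells, and 0 higher and 0 to 3 lower in CD8 T cells. The Coch share ran from 0.131% to 0.385% in IL-27 and from 0% to 46.2% in PBS, and the Jchain share from 0% to 0.771% in IL-27 and from 0% to 1.52% in PBS. With 30 plasma cells, genes of few UMIs such as Prdm1 are limited by depth.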

Other observations

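Some cells with much Jchain lay outside the classes compared. The 3 cells with at least 20% immunoglobulin UMIs and a CD3 UMI, left out of the plasma gate, held 1225 to 1472 Jchain UMIs each. The 7 cells with 10% to 20% immunoglobulin and no CD3 UMI held 329 to 657 each, and the 9 cells with 5% to 10% held 0 to 221. Among all ungated cells, Jchain summed to 2688 UMIs in IL-27 and 3250 UMIs in PBS, and 5 cells of each library held 91.7% of the IL-27 and 97.2% of the PBS total.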
